A study of Mus musculus with 12 samples.

Results

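The cathepsin genes examined here were Ctsa, Ctsb, Ctsc, Ctsd, Ctse, Ctsh, Ctsk, Ctsl, Ctss and Ctsz, which are 10 of the 57010 genes in the deposited count table. They were chosen by gene symbol, and each symbol matched a single Ensembl identifier. The cells were large peritoneal macrophages, which live in the cavity around the abdominal organs, sorted as F4/80 high and MHC class II low from female mice. WT naive and Tim4KO naive cells came from untreated wild-type mice and from mice lacking Tim4, a receptor for phosphatidylserine on dying cells that is encoded by Timd4. WT ID8 and Tim4KO ID8 cells came from mice of the same genotypes, 8 weeks old, 24 h after intraperitoneal injection of ID8, a mouse ovarian tumour line that carried the fluorescent protein ZsGreen and ovalbumin. Only ZsGreen-positive macrophages were kept from the injected mice, so the comparisons of ID8 with naive cells measured challenge and uptake of tumour material together. The genotype comparison in ID8 cells was likewise limited to ZsGreen-positive macrophages. Each group held 3 libraries, and the ages of the naive mice and the design of the Tim4KO allele are not given in the sources used here.

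Cathepsins are the proteases that digest proteins inside endosomes and lysosomes. Most are cysteine proteases, among them enzymes that cut within a chain (endopeptidases) and enzymes that trim its ends (exopeptidases), while cathepsins D and E are aspartic proteases and cathepsin A is a serine carboxypeptidase. They are made as inactive precursors, are largely carried to the lysosome on mannose 6-phosphate tags, become active on cleavage in the acidic compartment and are held in check by cystatins and stefins. In macrophages they break down engulfed cells, and in antigen-presenting cells they process antigens and the invariant chain of MHC class II.

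Library totals ran from 7358559 to 23170244 counts, and Timd4 was at 882 to 1489 CPM (counts per 1000000) in the WT libraries against 1.38 to 7.71 CPM in the Tim4KO libraries. All CPM values here use library sizes adjusted by TMM (trimmed mean of M values). The 12 markers of large peritoneal macrophages were all measured and summed to 17171 to 26348 CPM in every library. WT ID8 3 stood apart, with 8 cell-cycle genes summing to 1878 CPM against 101 to 284 CPM in the other libraries. The 12 tumour and epithelial markers summed to 5.41 to 24.5 CPM in WT naive, 6.23 to 8.73 in Tim4KO naive, 1.60 to 4.49 in WT ID8 and 1.77 to 5.30 in Tim4KO ID8, so they were not higher after injection. Because these were bulk samples, fewer cells of a type and less RNA per cell cannot be told apart. Nothing in the labels says that the libraries of a group came from separate animals, and p-values then measure only the spread between these samples.

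After ID8 challenge the cathepsins did not move together. Ctsz, Ctsl and Ctsb rose in both genotypes, by 1.43-fold to 2.34-fold. Ctss and Ctse fell in both, to between 0.371 and 0.700 of the naive level. Ctsc rose 1.82-fold in WT cells and had a fold of 1.01 in Tim4KO cells. Ctsa, Ctsd and Ctsh passed the test in neither genotype, and Ctsk was below the filter on low counts. A gene was called at an edgeR adjusted p under 0.05, with Benjamini-Hochberg adjustment over the 15943 tested genes. By this rule 6 of the 9 tested cathepsins were called in WT cells (4 higher, 2 lower), where 31.8% of all tested genes were called (19.5% higher, 12.3% lower). In Tim4KO cells 5 of 9 were called (3 higher, 2 lower), against 16.6% of all tested genes (11.5% higher, 5.06% lower). The 3 ID8 libraries did not overlap the 3 naive ones for 6 of 9 in WT (4 higher, 2 lower), where 44.4% of all tested genes did not (23.3% higher, 21% lower), and for 7 of 9 in Tim4KO cells (5 higher, 2 lower), where 41.9% did not (23.7% higher, 18.1% lower). The median log2 change of the 9 was 0.26 in WT and 0.20 in Tim4KO cells, beside -0.04 and -0.05 over all tested genes. The WT median rested on single libraries and on settings. It was -0.03 without WT ID8 3 and 0.49 without WT ID8 1, beside -0.09 and -0.04 over all tested genes. With upper-quartile scaling in place of TMM it was 0.03, beside -0.28 over all tested genes. With background reads as a covariate it was -0.20, beside 0.05. Background reads did not overlap between WT naive and WT ID8 libraries, so this covariate and challenge cannot be told apart in WT cells. Of these fits only the covariate put the cathepsins below all tested genes. Without WT ID8 3 the counts of called cathepsins were 6 in WT and 6 in Tim4KO cells. That fit called 5108 of 17374 tested genes in WT and 3595 in Tim4KO cells. No cathepsin was called between Tim4KO and WT in naive or in ID8 cells.

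**Figure D1:**
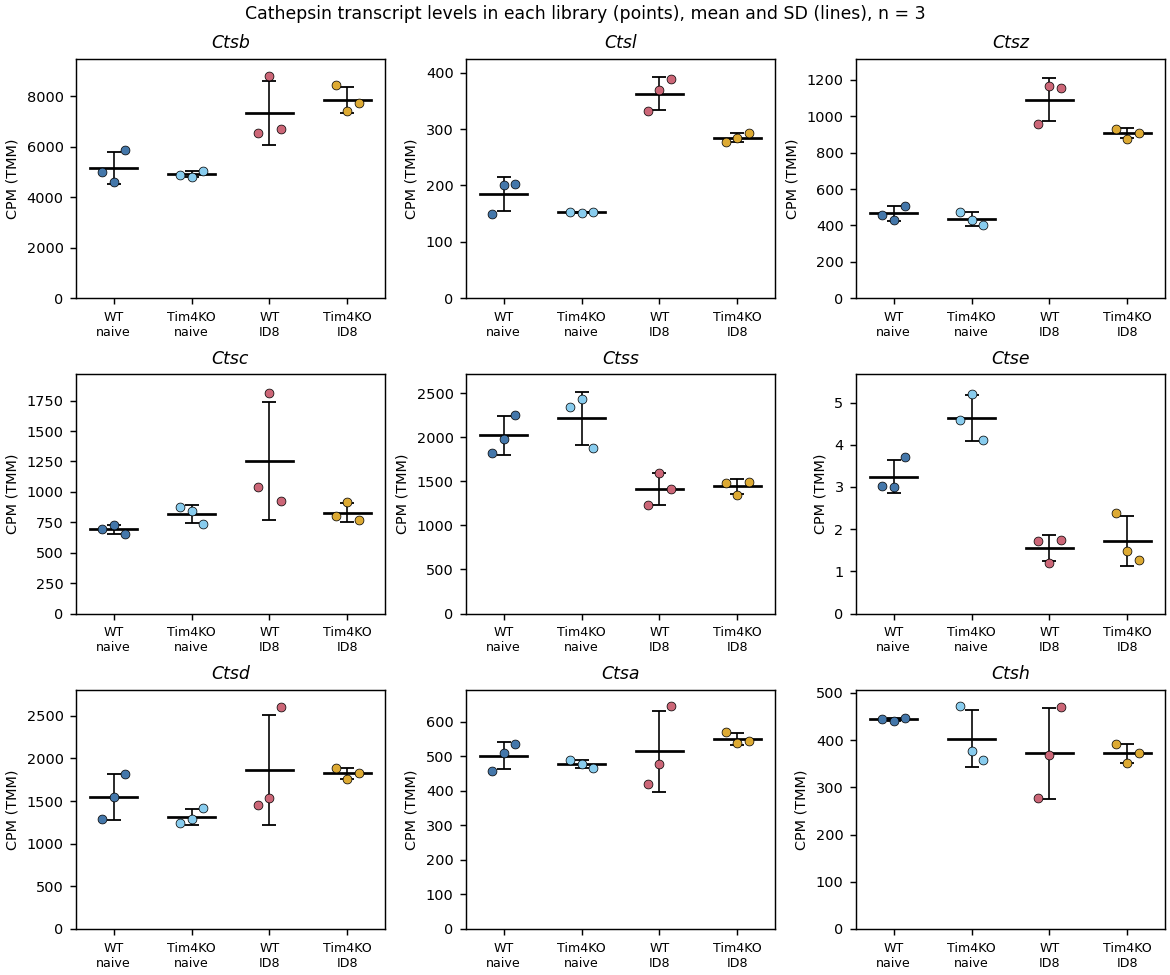
Level of the 9 tested cathepsins in each library (points; CPM scaled by TMM, axes from 0), with the group mean (thick line) and SD (bars), n = 3 libraries a group. Ctsb, Ctsl and Ctsz are higher in every ID8 library than in every naive library, and Ctss and Ctse are lower. The high WT ID8 mean of Ctsd is set by a single library at 2602 CPM. For Ctsc a single library at 1813 CPM raises the WT ID8 mean, and all 3 WT ID8 libraries lie above the WT naive ones.

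As a group, the 10 cathepsins took 1.13% ± 0.114 of all counts in WT naive and 1.34% ± 0.106 in WT ID8 libraries (mean ± SD, n = 3), and 1.098% ± 0.0349 and 1.39% ± 0.0291 in the corresponding Tim4KO groups. Libraries of naive cells reached at most 1.26%, and those of ID8 cells began at 1.23%, in WT ID8 1. Ctsb alone supplied 46.7% ± 2.37 of these cathepsin counts before and 51.6% ± 4.14 after challenge in WT cells, where libraries overlapped, and 45.8% ± 2.17 before and 55.8% ± 1.13 after it in Tim4KO cells, where they did not. The share of Ctss fell from 18.3% ± 0.635 to 9.94% ± 0.110 in WT and from 20.6% ± 2.41 to 10.2% ± 0.419 in Tim4KO cells, with no overlap between naive and ID8 libraries. The share of Ctsz went the other way, from 4.24% ± 0.184 to 7.70% ± 0.425 in WT and from 4.05% ± 0.261 to 6.44% ± 0.119 in Tim4KO cells. These shares are of counts and were not corrected for transcript length.

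To set the genes in order, levels were divided by transcript length and are given as CPM per kb, mean ± SD over 3 libraries. In WT naive cells Ctss stood at the top with 1491 ± 160 CPM per kb, followed by Ctsb with 1086 ± 136 and Ctsd with 729 ± 127. Ctsz, Ctsc and Ctsh lay at 324 ± 27.5, 277 ± 16.0 and 275 ± 1.63, Ctsa at 198 ± 15.8 and Ctsl at 93.5 ± 15.3. Far below came Ctse at 1.53 ± 0.186 and Ctsk at 0.131 ± 0.115. Among neighbours in this order, only Ctsc and Ctsh overlapped in their libraries. Tim4KO naive cells had the same first 3 genes, with Ctss at 1636 ± 222, and there Ctsc (329 ± 28.7) overlapped Ctsz (302 ± 25.8), which overlapped Ctsh (249 ± 37.7).

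Challenge exchanged the top of the order. In WT ID8 cells Ctsb led with 1551 ± 267 CPM per kb, ahead of Ctss with 1043 ± 132, Ctsd with 876 ± 301, Ctsz with 758 ± 82.6 and Ctsc with 504 ± 195. The libraries of Ctss, Ctsd, Ctsz and Ctsc overlapped from neighbour to neighbour, and so did those of Ctsh (230 ± 59.2), Ctsa (203 ± 46.5) and Ctsl (184 ± 14.6). In Tim4KO ID8 cells the order was the same, from Ctsb at 1657 ± 111 and Ctss at 1064 ± 60.7 to Ctsl at 144 ± 4.24, and only Ctsh (230 ± 12.4) and Ctsa (217 ± 6.73) overlapped. Ctse, at 0.731 ± 0.143 in WT ID8 and 0.804 ± 0.279 in Tim4KO ID8, and Ctsk, at 0.478 ± 0.385 in WT ID8 and 0.229 to 0.366 over the Tim4KO ID8 libraries, again came last, and their WT ID8 libraries overlapped. Dividing by the length of all annotated exons in place of that of a reference transcript exchanged Ctsh with Ctsa in every group and Ctsc with Ctsz in Tim4KO naive cells, and left the other ranks.

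**Figure D2:**
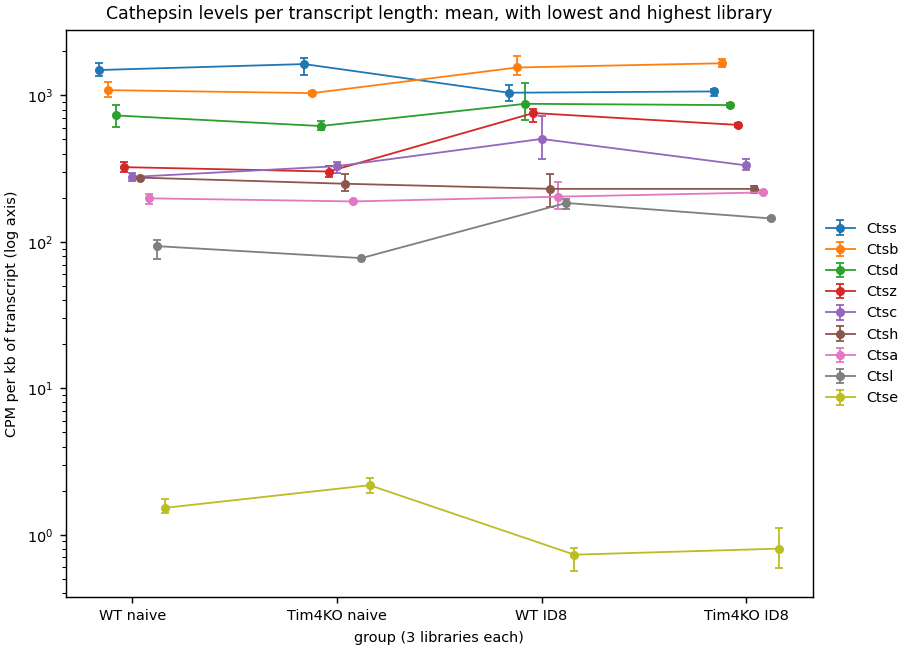
Mean level of each tested cathepsin per kb of transcript (CPM per kb, log axis) in the 4 groups, with bars from the lowest to the highest of 3 libraries. Ctss lies above Ctsb in naive cells (1491 against 1086 in WT) and below it in ID8 cells (1043 against 1551), while Ctsz and Ctsl climb and Ctse stays near the bottom of the axis.

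Sequences upstream of the start site are shown for Ctsz and Ctsc, which rose in WT cells, and Ctss, which fell, as 250 bases before the RefSeq start of the mouse build GRCm38.p6, each 5′ to 3′ on the strand of the gene. Of the 10 cathepsins, 7 had an entry in the RefSeq promoter table used, with 8 windows in all, and Ctsb, Ctse and Ctsh were not among them. Capitals mark matches to GGGCGG, the core of a GC box bound by Sp family factors (CCGCCC where it lies on the other strand), or to a pair of GAAA separated by any 2 bases, a form of the interferon-stimulated response element bound by IRF factors. The windows are chr2:174439040-174439289 on the minus strand for Ctsz, chr7:88277835-88278084 on the plus strand for Ctsc and chr3:95526536-95526785 on the plus strand for Ctss.
Ctsz: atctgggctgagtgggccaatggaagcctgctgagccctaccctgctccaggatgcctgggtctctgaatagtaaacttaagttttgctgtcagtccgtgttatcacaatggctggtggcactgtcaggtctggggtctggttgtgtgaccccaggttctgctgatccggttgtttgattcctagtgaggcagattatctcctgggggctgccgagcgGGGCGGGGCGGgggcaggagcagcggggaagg
Ctsc: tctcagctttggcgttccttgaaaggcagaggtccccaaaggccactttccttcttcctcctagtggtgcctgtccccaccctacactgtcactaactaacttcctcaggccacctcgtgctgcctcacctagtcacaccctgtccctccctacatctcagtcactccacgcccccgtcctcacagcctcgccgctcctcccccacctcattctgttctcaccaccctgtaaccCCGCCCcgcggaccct
Ctss: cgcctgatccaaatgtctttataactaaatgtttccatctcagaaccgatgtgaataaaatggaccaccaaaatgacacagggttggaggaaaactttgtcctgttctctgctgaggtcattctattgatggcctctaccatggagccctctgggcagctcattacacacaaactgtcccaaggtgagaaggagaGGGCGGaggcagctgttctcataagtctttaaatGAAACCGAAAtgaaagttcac
Ctsz held GGGCGG at -32 and -27 (overlapping each other), Ctsc at -16 and Ctss at -55, counted from the start site to the first base of the match. The GAAA pair was found in Ctss alone of the 7 genes, at -21, and is in 2.98% of the 32851 promoter windows of this length. GGGCGG was in 4 of the 7 genes and in 32.7% of all windows. The E-box CACGTG, the core of the elements bound by TFEB, was in 3 of the 7, Ctsa, Ctsd and Ctsl, and in 6.02% of all windows. All motifs were searched on both strands, and a match is a description of the letters only. GC content was 58.8% in Ctsz, 60.4% in Ctsc and 44.8% in Ctss.

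Among the cysteine endopeptidases, Ctsb (ENSMUSG00000021939) encodes cathepsin B, which cuts within chains and also removes dipeptides from the carboxyl end. It had 5002, 4597 and 5856 CPM in WT naive 1, 2 and 3, and 4886, 4806 and 5054 CPM in the Tim4KO naive libraries. In ID8 cells it had 6539, 8811 and 6713 CPM in WT and 8439, 7404 and 7736 CPM in Tim4KO. Every ID8 library was above every naive library, with WT ID8 2 highest of all. Its log2 change was 0.51 in WT (SE 0.14, edgeR adjusted p = 0.0146) and 0.68 in Tim4KO cells (SE 0.14, edgeR adjusted p = 0.00523). The WT call depended on settings, and was kept in 5 of 9 other settings and in 10 of 12 fits that left out a library. Upper-quartile scaling in place of TMM gave 0.26 (edgeR adjusted p = 0.12), and the edgeR adjusted p was 0.0582 without WT naive 2 and 0.0562 without WT ID8 2. Some exons of Ctsb overlap Fdft1 on the opposite strand, and whether strand was used in counting is not given in the sources used here.

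Ctsl (ENSMUSG00000021477) encodes cathepsin L, an endopeptidase that also processes other cathepsins and, in the thymic cortex, the invariant chain. Its libraries read 150, 202 and 202 CPM in WT naive, 153, 152 and 153 CPM in Tim4KO naive, 332, 369 and 389 CPM in WT ID8, and 277, 285 and 293 CPM in Tim4KO ID8. The naive and ID8 libraries were far apart in both genotypes, and within ID8 cells all Tim4KO libraries were below all WT libraries. The challenge raised Ctsl by 0.98 on the log2 scale in WT (SE 0.13, edgeR adjusted p = 8.81e-05) and by 0.90 in Tim4KO cells (SE 0.13, edgeR adjusted p = 0.000342). Both changes were called in all 9 other settings and in all 12 fits that left out a library. A noncoding antisense gene, Gm47123, and a pseudogene, Gm49230, share exonic bases with Ctsl, so the split of reads among them is uncertain.

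Ctss (ENSMUSG00000038642) encodes cathepsin S, an endopeptidase that stays active at neutral pH and makes the final cuts in the invariant chain of professional antigen-presenting cells. Its levels were 1826, 1980 and 2253 CPM in WT naive and 2341, 2436 and 1873 CPM in Tim4KO naive libraries. After challenge they were 1233, 1592 and 1414 CPM in WT and 1481, 1348 and 1498 CPM in Tim4KO. All ID8 libraries were below all naive libraries. Expression fell by 0.52 on the log2 scale in WT (SE 0.14, edgeR adjusted p = 0.0132) and by 0.62 in Tim4KO cells (SE 0.14, edgeR adjusted p = 0.00813). The WT call was lost without WT naive 2, WT naive 3 or WT ID8 1 (edgeR adjusted p = 0.0523, 0.0916 and 0.0876) and with no filter on low counts (0.0568), and the Tim4KO call without Tim4KO naive 2 or Tim4KO ID8 2 (0.0695 and 0.0872). The 12 markers of small peritoneal macrophages and dendritic cells, which include MHC class II genes, summed to 177 to 304 CPM in WT naive, 200 to 232 in Tim4KO naive, 97.5 to 217 in WT ID8 and 166 to 209 in Tim4KO ID8, and their part in the change of Ctss was not tested.

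Ctsk (ENSMUSG00000028111) encodes cathepsin K, the collagen-degrading enzyme of osteoclasts. WT naive libraries held 3, 4 and 0 counts and Tim4KO naive libraries 1, 2 and 8, against 12, 6 and 6 counts in WT ID8 libraries and 6 counts in each Tim4KO ID8 library, or 0 to 1.38 CPM. The filter on low counts removed it from the main test. A fit with no filter did not call it after challenge in WT (unadjusted p = 0.0641, edgeR adjusted p = 0.231) or in Tim4KO cells (unadjusted p = 0.464, edgeR adjusted p = 0.839). Olfactory and vomeronasal receptor genes, which macrophages are not known to use, averaged 0.00344 to 0.475 CPM a gene in the same libraries. The ID8 libraries, at 0.274 to 1.38 CPM, overlapped the naive ones, at 0 to 0.451 CPM, and at this depth no difference was detectable.

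Of the exopeptidases, Ctsz (ENSMUSG00000016256) moved most among the called increases. Cathepsin Z, also called cathepsin X, removes single residues from the carboxyl end. It read 459, 431 and 509 CPM in WT naive, 475, 430 and 401 CPM in Tim4KO naive, 955, 1167 and 1154 CPM in WT ID8, and 932, 876 and 909 CPM in Tim4KO ID8. Every ID8 library was well above every naive library, and the Tim4KO ID8 libraries were all below the WT ID8 libraries. The log2 change was 1.23 in WT (SE 0.12, edgeR adjusted p = 1.1e-05) and 1.06 in Tim4KO cells (SE 0.12, edgeR adjusted p = 8e-05), and both were called in all 9 other settings and all 12 fits that left out a library.

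Ctsc (ENSMUSG00000030560) encodes cathepsin C, a dipeptidyl peptidase that activates the serine proteases stored in granules of neutrophils, mast cells and cytotoxic lymphocytes. WT naive libraries had 692, 732 and 652 CPM and Tim4KO naive libraries 875, 843 and 739 CPM. WT ID8 libraries had 1037, 1813 and 921 CPM, against 804, 916 and 769 CPM in Tim4KO ID8. In WT all ID8 libraries were above the naive ones, with WT ID8 2 far above the rest, whereas in Tim4KO the naive and ID8 libraries overlapped. Ctsc rose by 0.86 on the log2 scale in WT cells (SE 0.20, edgeR adjusted p = 0.00501), and the change in Tim4KO cells was 0.02 (SE 0.20, 95% interval -0.40 to 0.44, edgeR adjusted p = 0.96). Leaving out WT ID8 2 lowered the WT change to 0.53, which was still called (edgeR adjusted p = 0.0231), and leaving out WT ID8 3 raised it to 1.08. The 10 neutrophil markers, led by S100a8, summed to 8.75 to 9.22 CPM in WT naive, 9.19 to 11.2 in Tim4KO naive, 12.001 to 32.2 in WT ID8 and 22.9 to 33.9 in Tim4KO ID8, with the neutrophil surface marker Ly6g at 0 to 0.231 CPM in every library. The 7 mast cell markers summed to 13.6 to 39.9 CPM in naive and 2.53 to 9.53 CPM in ID8 libraries. The part of these cells in the levels of Ctsc was not tested.

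Ctsh (ENSMUSG00000032359) encodes cathepsin H, an aminopeptidase. Its levels were 444, 441 and 446 CPM in WT naive, 473, 378 and 359 CPM in Tim4KO naive, 278, 368 and 470 CPM in WT ID8, and 391, 351 and 373 CPM in Tim4KO ID8. The WT naive libraries were nearly equal, and the WT ID8 libraries spread to both sides of them. The log2 change was -0.25 in WT (SE 0.16, edgeR adjusted p = 0.234) and -0.12 in Tim4KO cells (SE 0.16, edgeR adjusted p = 0.675). Upper-quartile scaling, a mean count of at least 50 and the fit with background reads as a covariate each called the WT change, at -0.50, -0.43 and -0.61 (edgeR adjusted p = 0.024, 0.0443 and 0.0202).

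The aspartic protease Ctsd (ENSMUSG00000007891), cathepsin D, is a major endopeptidase of the lysosome. It had 1285, 1547 and 1823 CPM in WT naive, 1242, 1287 and 1414 CPM in Tim4KO naive, 1452, 1536 and 2602 CPM in WT ID8, and 1887, 1762 and 1830 CPM in Tim4KO ID8. WT ID8 3 was far above the other WT libraries, which overlapped between naive and ID8, while in Tim4KO all ID8 libraries were above all naive libraries. The log2 change was 0.26 in WT (SE 0.19, edgeR adjusted p = 0.293), falling to -0.03 when WT ID8 3 was left out. In Tim4KO cells it was 0.47 (SE 0.19, 95% interval 0.06 to 0.89, edgeR adjusted p = 0.111). That change was called with no filter, with only the Tim4KO groups in the fit and without WT ID8 3 (edgeR adjusted p = 0.0129, 0.0102 and 0.0145). A gene model on the same strand, Gm49369, shares exonic bases with Ctsd, so its counts are uncertain to that extent.

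Ctse (ENSMUSG00000004552), cathepsin E, is an aspartic protease of endosomes known from gastric epithelium and immune cells. It was scarce, with 14 to 73 counts a library. The values were 3.03, 3.005 and 3.70 CPM in WT naive, 4.59, 5.19 and 4.11 CPM in Tim4KO naive, 1.73, 1.20 and 1.73 CPM in WT ID8, and 2.38, 1.48 and 1.27 CPM in Tim4KO ID8. All ID8 libraries were below all naive libraries, and within naive cells the Tim4KO libraries were above the WT libraries. It fell by 1.06 on the log2 scale in WT (SE 0.31, edgeR adjusted p = 0.0193) and by 1.43 in Tim4KO cells (SE 0.31, edgeR adjusted p = 0.00561). The WT call was lost without WT naive 3 or WT ID8 2 (edgeR adjusted p = 0.083 and 0.0882), with no filter (0.113) and with only the WT groups in the fit (0.052). Background reads in the receptor genes named above also were fewer after challenge, with a mean total of 521 CPM before and 112 after it in WT, and of 347 before and 223 after it in Tim4KO cells. With that sum as a covariate the changes of Ctse were -1.42 in WT and -1.56 in Tim4KO cells (edgeR adjusted p = 0.0202 and 0.00212). The sum was 316 to 814 CPM in WT naive and 5.89 to 245 CPM in WT ID8 libraries. These did not overlap, so in WT the covariate and challenge cannot be told apart, and the part of background reads was not tested.

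The serine carboxypeptidase Ctsa (ENSMUSG00000017760), cathepsin A, also serves as the protective protein that stabilises lysosomal beta-galactosidase and neuraminidase. Its levels were 459, 511 and 537 CPM in WT naive, 490, 479 and 466 CPM in Tim4KO naive, 421, 477 and 647 CPM in WT ID8, and 571, 538 and 544 CPM in Tim4KO ID8. WT ID8 3 was again the highest library and WT ID8 1 the lowest, so the WT groups overlapped, while the Tim4KO ID8 libraries lay above the Tim4KO naive ones. The log2 change was 0.04 in WT (SE 0.14, 95% interval -0.27 to 0.34, edgeR adjusted p = 0.851) and 0.20 in Tim4KO cells (SE 0.14, 95% interval -0.10 to 0.51, edgeR adjusted p = 0.372). Exons of Ctsa overlap Pltp and Neurl2 on the opposite strand, which makes its counts uncertain if strand was not used.

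**Figure D3:**
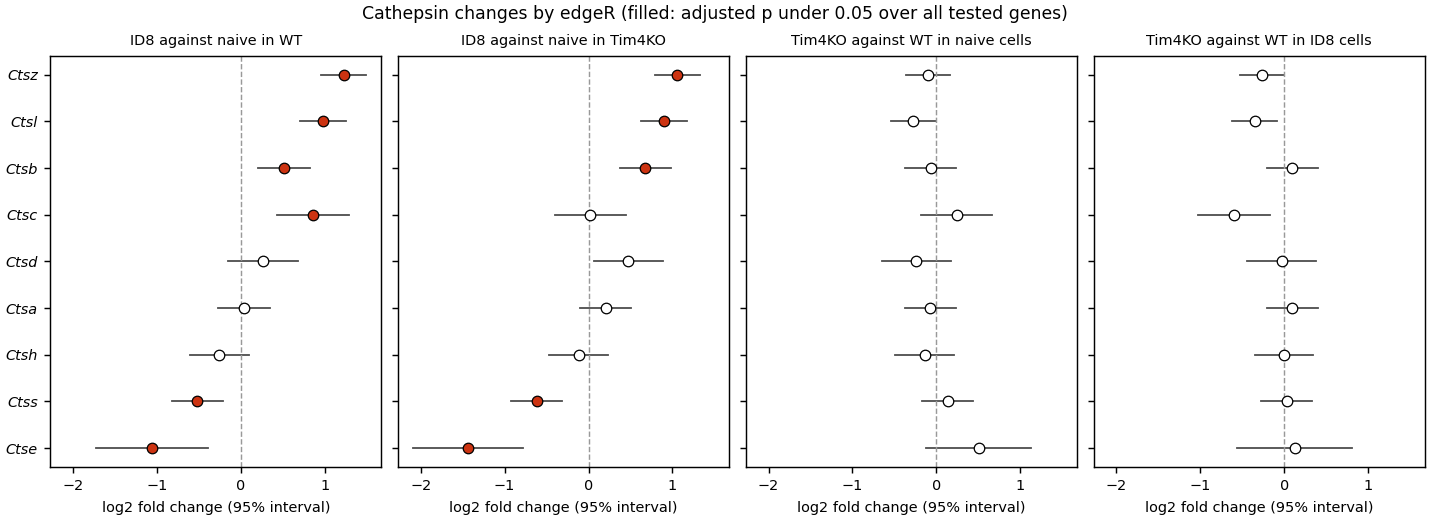
log2 fold change of each tested cathepsin with its 95% interval in the challenge comparisons (left pair) and the genotype comparisons (right pair), edgeR, with filled points where the adjusted p is under 0.05. Filled points run from -1.43 (Ctse, Tim4KO) to 1.23 (Ctsz, WT), and both genotype panels hold open points only.

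Genotype was compared next, within the same libraries that enter the challenge comparisons. In naive cells 0 of 9 tested cathepsins were called by edgeR, where 0.0439% of all tested genes were called, and 1 had an unadjusted p under 0.05, as did 999 of all 15943 tested genes. That gene was Ctsl, at -0.27 in Tim4KO relative to WT on the log2 scale (SE 0.13, edgeR adjusted p = 0.787). DESeq2 and limma voom called 0 as well. Libraries did not overlap for Ctsc (0.24, SE 0.20) and Ctse (0.50, SE 0.30), both higher in Tim4KO, or 2 of 9 (2 of 9 higher) against 14.2% of all tested genes (7.34% higher). Over the 9 cathepsins the median log2 difference was -0.07, and over all tested genes it was 0.00.

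In ID8 cells 0 of 9 were called by edgeR, beside 0.0565% of all tested genes. An unadjusted p under 0.05 was found for 3 of 9 cathepsins and for 1935 of all 15943 tested genes; DESeq2 and limma voom also called 0 cathepsins. These were Ctsc at -0.60 (SE 0.20, edgeR adjusted p = 0.284), Ctsl at -0.35 (SE 0.13, edgeR adjusted p = 0.304) and Ctsz at -0.27 (SE 0.12, edgeR adjusted p = 0.401). For each of them every Tim4KO ID8 library was below every WT ID8 library, so 3 of 9 did not overlap (3 of 9 lower), beside 15.6% of all tested genes (8.56% lower). The Ctsc difference was -0.25 without WT ID8 2. Without WT ID8 3 it was -0.79 and was called (edgeR adjusted p = 0.00977), in a fit that called 997 of 17374 tested genes, as it was with no filter on low counts (-0.66, edgeR adjusted p = 0.00571). The other 6 had differences between -0.03 and 0.13, and their 95% intervals reached from -0.56 (Ctse) to 0.81 (Ctse).

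The interaction asks whether the change from naive to ID8 cells differed between genotypes, and is the Tim4KO response minus the WT response. ID8 cells of both genotypes were kept only if ZsGreen-positive, so genotype differences in challenge and in uptake cannot be told apart here. By edgeR 0 of 9 cathepsins and 0% of all tested genes were called, while 1186 of all 15943 tested genes had an unadjusted p under 0.05. Ctsc alone had an unadjusted p under 0.05, with a difference of -0.84 (SE 0.28, 95% interval -1.44 to -0.24, edgeR adjusted p = 0.668); DESeq2 and limma voom called 0 cathepsins too. It was -0.50 without WT ID8 2, and it was called without WT ID8 3 (-1.04, edgeR adjusted p = 0.0218), when 368 of 17374 tested genes were called, and with no filter (-0.91, edgeR adjusted p = 0.0214). So Ctsc was called in WT and not in Tim4KO cells, and the difference between these responses itself did not pass the test. For Ctsb, Ctsl, Ctss and Ctsz the differences in response were 0.16, -0.08, -0.10 and -0.17, with 95% intervals from -0.27 to 0.60, -0.46 to 0.31, -0.53 to 0.32 and -0.54 to 0.20.

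Because Ctss fell while Ctsb, Ctsl and Ctsz rose, ratios of counts within a library, which need no scaling between libraries and were not corrected for length, were computed. The ratio of Ctsb to Ctss was 2.74, 2.32 and 2.60 in the WT naive libraries, against 5.30, 5.54 and 4.75 after challenge. Tim4KO naive libraries gave 2.09, 1.97 and 2.70, against 5.70, 5.49 and 5.17 after challenge. Naive and ID8 libraries were clearly apart, and genotypes overlapped. For Ctsz to Ctss the mean ± SD went from 0.232 ± 0.0178 to 0.774 ± 0.0416 in WT and from 0.198 ± 0.0192 to 0.629 ± 0.0217 in Tim4KO cells (n = 3 each). For Ctsl to Ctss it went from 0.0911 ± 0.01001 to 0.259 ± 0.0235 in WT and from 0.0698 ± 0.0105 to 0.198 ± 0.0124 in Tim4KO cells. Both ratios were lower in every Tim4KO library than in every WT library, in ID8 cells and also in naive cells, where the nearest libraries were at 0.2140 (Tim4KO) and 0.2175 (WT) for Ctsz to Ctss and at 0.08184 and 0.08192 for Ctsl to Ctss. Since these genes were picked for moving in opposite directions without overlap, naive and ID8 ratios had to separate. The ratios are given as a description, with no test.

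**Figure D4:**
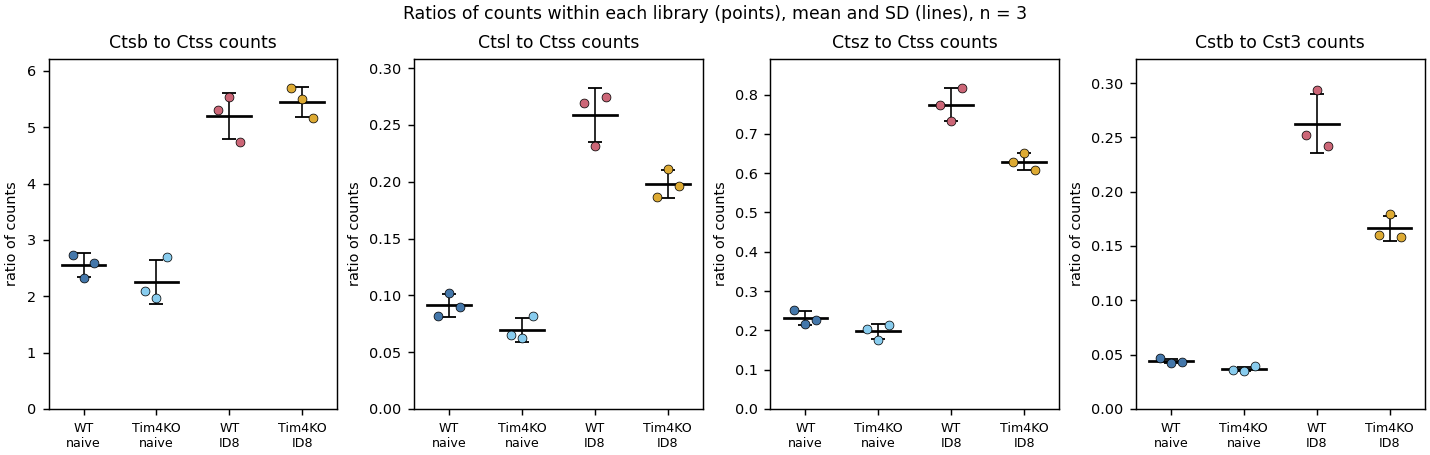
Ratios of counts within each library (points; linear axes from 0), with the mean (thick line) and SD (bars), n = 3 libraries a group: Ctsb, Ctsl and Ctsz to Ctss, and the inhibitor pair Cstb to Cst3. All 4 ratios are higher in every ID8 library than in every naive library, and for Ctsl, Ctsz and Cstb the Tim4KO points lie below the WT points in naive and in ID8 cells, by a narrow margin in naive cells for Ctsl and Ctsz.

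The likeness of patterns was measured as the root-mean-square difference of log2 CPM over the 12 libraries after each gene's own mean was removed, so a lower value means a closer pattern. Among the cathepsins Ctsl and Ctsz were nearest to each other (0.17), well below their own SDs of log2 CPM (0.53 and 0.61). Ctsa and Ctsd were as near (0.17), but the own SD of Ctsa was also 0.17. So Ctsa was no nearer to Ctsd than to a flat line. Ctss lay nearest to Ctsh (0.27, own SDs 0.33 and 0.22) and Ctsc to Ctsb (0.33, own SDs 0.39 and 0.34). Those distances were close to the own SDs. Over the 10221 other tested genes whose counts averaged 50 or more, the gene closest to Ctsl was Dnase2a (0.10), the lysosomal nuclease that digests DNA of engulfed cells. Ctsz was closest to Cisd3 (0.12), Ctss to Irf2 (0.08), and Ctsb to Git1 (0.10), with the vacuolar ATPase accessory gene Atp6ap1 (0.10) and the lysosomal tripeptidyl peptidase Tpp1 (0.11) next. Ctse was closest to the lysosomal mannosidase Man2b1 (0.26). The nearest to Ctsc, Ctsa, Ctsd and Ctsh were Gm6563 (0.10), Nub1 (0.05), Pard6a (0.11) and Rpl39-ps (0.08). With this many candidates a near neighbour is a description of these 12 libraries.

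Other genes of the pathway were taken from lists written for this purpose. Of 13 other cathepsins only Ctsf and Ctso were expressed enough to test. Ctsf, cathepsin F, an endopeptidase of macrophages able to cut the invariant chain, fell by 1.85 on the log2 scale in WT (SE 0.27, edgeR adjusted p = 0.000268) and by 1.42 in Tim4KO cells (SE 0.27, edgeR adjusted p = 0.003). Its levels went from 29.5 ± 5.39 to 8.01 ± 3.71 CPM in WT and from 25.7 ± 2.02 to 9.53 ± 2.35 CPM in Tim4KO cells (mean ± SD, n = 3). Ctso stood at -0.05 and 0.04 and was not called. The 9 cathepsin genes known from mouse placenta ranged from 0 to 0.542 CPM, with at most 8 counts in any library.

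Inhibitors of cathepsins came next. Of 18 listed genes, 15 were in the table and 7 were tested, and in both genotypes 4 were called higher and 1 lower after challenge, where 19.5% of all tested genes were called higher and 12.3% lower in WT and 11.5% and 5.06% in Tim4KO cells. Stfa3, a stefin A that inhibits cysteine cathepsins, rose from 0.301 ± 0.105 to 41.6 ± 16.3 CPM in WT and from 0.608 ± 0.246 to 23.5 ± 1.77 CPM in Tim4KO cells (mean ± SD, n = 3; edgeR adjusted p = 1.3e-07 and 1.3e-06). Its naive libraries held only 2 to 6 counts in WT and 5 to 10 in Tim4KO. Stfa3 thus passed the filter on low counts through its ID8 libraries. Mouse stefin A genes are near copies of each other, so the assignment of reads among them is uncertain, and some are known from neutrophils, whose markers are given with Ctsc and whose part was not tested. Cstb, the cytosolic stefin B, rose by 1.38 in WT and 1.17 in Tim4KO cells on the log2 scale (SE 0.12 and 0.12, edgeR adjusted p = 2.92e-06 and 2.42e-05). Cst3, the secreted cystatin C, fell by 1.19 and by 1.01 (SE 0.13 and 0.13, edgeR adjusted p = 1.71e-05 and 0.000132). The ratio of Cstb to Cst3 counts went from 0.0441 ± 0.00227 to 0.263 ± 0.0274 in WT and from 0.0368 ± 0.00208 to 0.166 ± 0.0118 in Tim4KO cells. The 2 other increases, named after their values were seen, were Serpinb6a (1.18 and 0.89, SE 0.15 and 0.15) and Ctla2a (5.98 and 4.61, SE 0.90 and 0.90). The WT ID8 libraries of Ctla2a spread widely, from 5.75 to 51.0 CPM. Its calls were lost with limma voom and, in Tim4KO cells, without Tim4KO naive 3. Like Stfa3, Ctla2a passed the filter through its ID8 libraries, with 3 to 8 counts in WT naive and 3 to 7 in Tim4KO naive libraries. For both genes the filter favoured an increase, which limits the count of increases given above. In ID8 cells Cstb was 0.61 lower on the log2 scale in Tim4KO, written -0.61 (SE 0.12, unadjusted p = 0.000111), and was not called by edgeR (adjusted p = 0.0802).

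Partner enzymes of the lysosome were a further list. Among 13 tested of 14 listed proteases and cathepsin partners, 4 rose and 3 fell in WT, and 4 rose and 1 fell in Tim4KO cells. Of all tested genes 19.5% were called higher and 12.3% lower in WT, and 11.5% and 5.06% in Tim4KO cells. Cpq, a lysosomal carboxypeptidase, fell by 1.32 in WT and by 1.29 in Tim4KO cells on the log2 scale (SE 0.12 and 0.12, edgeR adjusted p = 4.07e-06 and 1.02e-05). Psap, the precursor of the saposins, rose by 0.66 and 0.61 (edgeR adjusted p = 0.00202 and 0.00576). Ifi30, the lysosomal thiol reductase that opens disulfide bonds for cathepsins, rose by 1.01 in WT (SE 0.24, edgeR adjusted p = 0.00664) and by 1.14 in Tim4KO cells (SE 0.24, edgeR adjusted p = 0.0061). Ggh, a lysosomal hydrolase of folate polyglutamates, fell by 0.63 in WT cells (SE 0.13, edgeR adjusted p = 0.00248) and was at -0.35 in Tim4KO cells (edgeR adjusted p = 0.0825). Neu1, the neuraminidase that cathepsin A stabilises, was at 0.53 in WT (edgeR adjusted p = 0.00259) and 0.44 in Tim4KO cells (edgeR adjusted p = 0.0142), and the other partner Glb1 was not called; both were picked for their tie to Ctsa after their values were seen. The Tim4KO call of Neu1 was lost in 3 of 12 fits that left out a library.

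Genes of the mannose 6-phosphate route and of other sorting routes formed the next list, and all were tested. Not all of them are specific to cathepsins. Of the 15, 7 were called higher and 0 lower in WT, and 5 higher and 1 lower in Tim4KO cells, beside 19.5% and 12.3% of all tested genes in WT and 11.5% and 5.06% in Tim4KO cells, which also lean to higher. Igf2r, the large mannose 6-phosphate receptor, went from 19.9 ± 3.30 to 93.2 ± 13.6 CPM in WT and from 22.1 ± 7.24 to 79.1 ± 2.84 CPM in Tim4KO cells (mean ± SD, n = 3), a log2 change of 2.22 and 1.84 (SE 0.21 and 0.21, edgeR adjusted p = 6.68e-06 and 6.64e-05). Nagpa, which uncovers the mannose 6-phosphate tag, rose by 0.52 and 0.63 (edgeR adjusted p = 0.00755 and 0.00471). Gnptab, which encodes the enzyme that starts the tag, rose by 0.70 in WT cells (SE 0.14, edgeR adjusted p = 0.00221) and was at 0.27 in Tim4KO cells (edgeR adjusted p = 0.227). Lrp1, an endocytic receptor, rose by 0.80 in WT (SE 0.23, edgeR adjusted p = 0.0178) and by 1.20 in Tim4KO cells (SE 0.23, edgeR adjusted p = 0.00325). The decrease in Tim4KO cells was that of Sorl1, a sorting receptor, at a log2 change of -1.22 (edgeR adjusted p = 0.00476) beside -0.67 in WT (edgeR adjusted p = 0.053), named after its value was seen. With upper-quartile scaling 5 of the 7 WT calls were lost, those of Nagpa and of Lrp1, Lamtor1, Vps35 and M6pr, the last 4 named here after their values were seen.

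**Figure D5:**
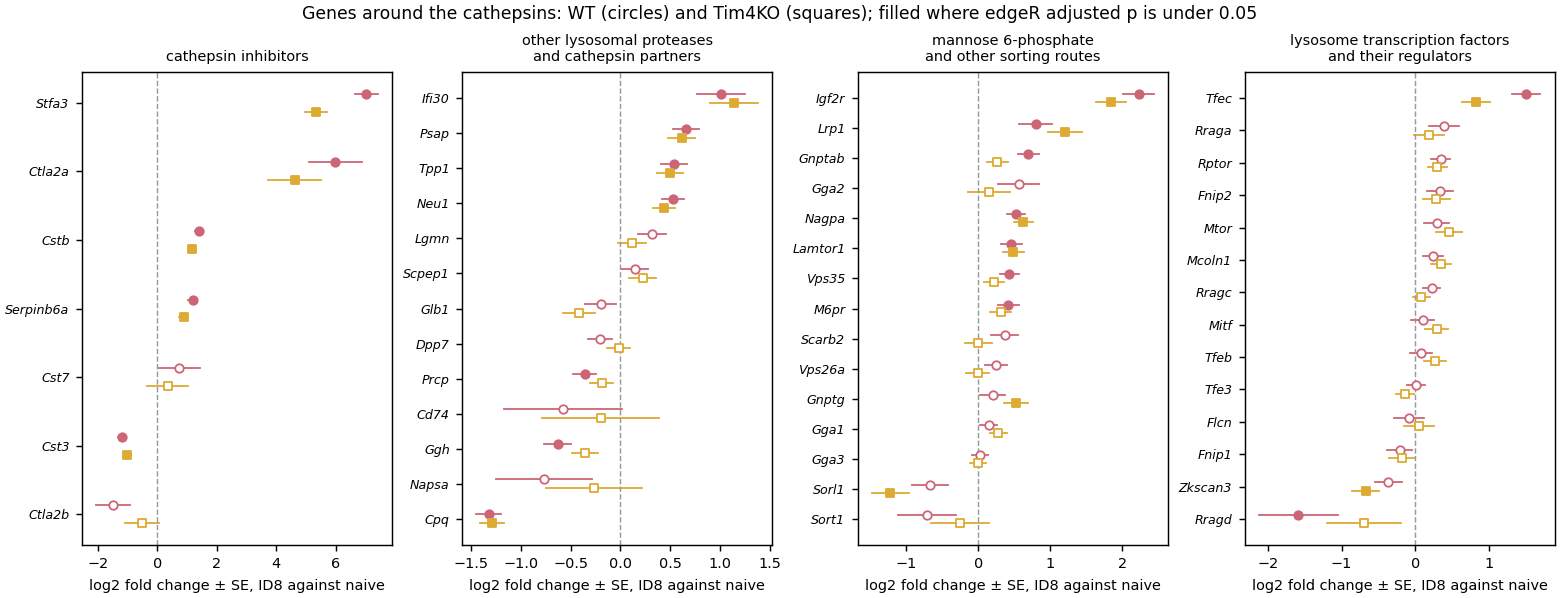
log2 fold change ± SE of ID8 against naive cells for the tested inhibitors, lysosomal proteases and partners, sorting genes and lysosome transcription factors, in WT (circles) and Tim4KO (squares), filled where the edgeR adjusted p is under 0.05. Stfa3 (7.03 and 5.33), Ctla2a (5.98 and 4.61) and Igf2r (2.22 and 1.84) lie far to the right of zero, and most of the transcription factor panel is open.

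The last list held transcription factors of the lysosome and their regulators. Of 14 genes, all tested, 2 were called in each genotype, 1 higher and 1 lower, beside 31.8% of all tested genes in WT and 16.6% in Tim4KO cells. Tfec, a relative of TFEB found in macrophages, rose from 9.18 ± 1.79 to 26.3 ± 5.44 CPM in WT (log2 1.51, SE 0.19, edgeR adjusted p = 7.19e-05) and from 7.66 ± 0.792 to 13.6 ± 0.603 CPM in Tim4KO cells (log2 0.83, SE 0.19, edgeR adjusted p = 0.00974). Tfeb, the master regulator of lysosomal genes, had changes of 0.08 and 0.27, Tfe3 of 0.01 and -0.13 and Mitf of 0.11 and 0.29, with no call in either genotype. The decreases were Rragd in WT (-1.59, edgeR adjusted p = 0.0366), called in 4 of 12 fits that left out a library, and Zkscan3 in Tim4KO cells (-0.67, edgeR adjusted p = 0.0223), called in 7 of 12. No gene of the 5 lists was called between genotypes or in the interaction by edgeR. The lowest unadjusted p values in ID8 cells were those of Cstb and of Tfec (-0.95, SE 0.19, unadjusted p = 0.00015, edgeR adjusted p = 0.0839).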

How the data were processed

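The deposited table holds raw counts that the authors made, with 57010 Ensembl genes as rows and 12 libraries as columns. All columns matched a library by name, and 0 were left unmatched. Per the labels' protocols, the RNeasy micro kit gave the RNA and the SMART-Seq mRNA LP kit the libraries; no molecular identifiers are named, so count floors cover counting error only. The submitters' processing notes name FastQC, STAR 2.5, mm10 and GRCm39 with no role or order; the build, the counting program and the handling of strand are otherwise not given in the sources used here. Gene names came from GENCODE vM21 (52029 of 57010 identifiers) and promoter sequences from RefSeq GRCm38.p6.

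Counts were analysed in R 4.3.3 with edgeR 4.0.16: filterByExpr with a minimum count of 10, TMM factors, and a robust quasi-likelihood fit with a mean per group over all 12 libraries (8 residual degrees of freedom). F tests were two-sided, with Benjamini-Hochberg adjustment over 15943 genes and a threshold of 0.05, for 5 comparisons. SEs were derived from F and the log2 fold change. Levels are CPM, or CPM per kb of the shortest GENCODE basic transcript with a consensus coding sequence. A floor of 3 counts was 0.137 to 0.399 CPM. Counts of every pair of libraries within a group differed beyond sampling noise (chi-square per degree of freedom 5.04 to 78.6). The fit was tested on simulated data.

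All 10 cathepsins are reported; from each pathway list up to 3 called genes with the smallest p per comparison could be named, and others are said to be chosen after their values were seen. The cathepsins and the lists were chosen with earlier results of these data known. Alternatives were, in edgeR, upper-quartile scaling or DESeq2 size factors, and no filter or a mean count of at least 50; DESeq2 1.42.0; limma voom (limma 3.58.1), only the groups compared, the replicate number as a block, background reads in 1713 olfactory and vomeronasal receptor genes as a covariate, and leaving out each library.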

Additional observations from a re-analysis of the deposited data

Results flagged for a closer look

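The challenge response of Ctsc differed between genotypes by an unadjusted test of the difference itself, and not after adjustment. It was -0.84 on the log2 scale (Tim4KO response minus WT response, SE 0.28, unadjusted p = 0.00901, edgeR adjusted p = 0.668). In WT cells 3 of 3 ID8 libraries were above the naive ones, and in Tim4KO cells the groups overlapped. WT ID8 2, at 1813 CPM, carried much of it, since without that library the value was -0.50.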

How the results depend on the processing

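Ctsl and Ctsz kept their calls in both genotypes under all 9 other settings and all 12 fits without a library, as did Ctsc in WT and Ctsb in Tim4KO cells. The number of cathepsins called was 4 to 6 in WT and 4 to 6 in Tim4KO cells over the other settings, and 4 to 6 and 4 to 6 over the fits without a library. In ID8 cells and for the interaction 0 cathepsins were called between genotypes, against 1 (Ctsc) with no filter on low counts, and 0 to 1 over the fits without a library. In naive cells it was 0 throughout. A mean count of at least 50 left out Ctse. Ctsk did not pass the filter on low counts, and Ctse, with 14 to 73 counts a library, has the widest intervals. The causes of these changes were not tested.

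Upper-quartile scaling moved the median log2 change of all genes from -0.04 to -0.28 in WT and from -0.05 to -0.17 in Tim4KO cells, and the genes called higher from 3105 of 5067 to 1799 of 5307 in WT and from 1836 of 2642 to 1322 of 2716 in Tim4KO cells. The median of the cathepsins in Tim4KO challenge moved from 0.20 to 0.09 with that scaling and to 0.11 with the background covariate. With upper-quartile scaling the cathepsins called in WT were 3 higher and 3 lower (4 and 2 with TMM), since Ctsb was lost and Ctsh gained. Counts of called genes over the whole table also moved. Between ID8 genotypes they were 9 as reported, 264 with no filter, 265 with DESeq2, 219 with the background covariate and 997 without WT ID8 3, and 1 to 997 over all fits without a library. In naive cells they were 7, 59 with no filter and 52 with DESeq2, and 1 to 29 without a library; for the interaction they were 0, 73 and 11, and 368 without WT ID8 3. For WT challenge they were 5067, against 3102 with only the WT groups fitted and 3362 without WT naive 3. For Tim4KO challenge they were 2642, against 1222 without Tim4KO naive 2, 1484 without Tim4KO naive 3, and 1432, 1420 and 1666 without Tim4KO ID8 1, 2 and 3.

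Directions changed only for cathepsins that were not called. Ctsa in WT challenge was -0.0089 with DESeq2 size factors, -0.0087 with DESeq2, -0.20 with upper-quartile scaling, -0.13 with a mean count of at least 50, -0.054 with only the WT groups and -0.29 with the background covariate. Ctsd in WT challenge was -0.20 with that covariate. Ctsc in Tim4KO challenge was -0.030 with DESeq2 size factors and with DESeq2, -0.10 with upper-quartile scaling, -0.085 with a mean count of at least 50 and -0.012 with only the Tim4KO groups. Between ID8 genotypes, Ctsd was 0.045 with upper-quartile scaling, 0.0090 with a mean count of at least 50, 0.026 with limma voom and 0.24 with the covariate; Ctsh was 0.077, 0.041, 0.031 and 0.20 under the same settings and 0.026 with only the ID8 groups. Ctss was -0.024 there with no filter. In the interaction upper-quartile scaling gave 0.043 for Ctsl and 0.028 for Ctss.

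Over the fits without a library, the log2 change ranged from -0.14 to 0.24 for Ctsa and from -0.031 to 0.49 for Ctsd in WT challenge, and from -0.040 to 0.090 for Ctsc and from -0.18 to 0.033 for Ctsh in Tim4KO challenge. Ctsb between naive genotypes ranged from -0.13 to 0.040. Between ID8 genotypes the ranges were -0.080 to 0.30 for Ctsa, -0.026 to 0.24 for Ctsb, -0.23 to 0.29 for Ctsd, -0.20 to 0.31 for Ctse, -0.22 to 0.20 for Ctsh and -0.11 to 0.12 for Ctss. In the interaction they were -0.018 to 0.36 for Ctsa, -0.00052 to 0.52 for Ctsd, -0.091 to 0.33 for Ctsh and -0.20 to 0.048 for Ctsl.

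The groups share replicate numbers. Over 18 same-numbered pairs the correlation of deviations from group means ran from -0.50 to 0.42 with a median of -0.01, and 5 pairs were over 0.1. Between WT naive and WT ID8 the same-numbered pairs 1, 2 and 3 were at 0.42, 0.10 and 0.19. Between Tim4KO naive and Tim4KO ID8 they were at 0.01, -0.20 and 0.22. With 3 libraries a group these values cannot decide whether the numbers pair the libraries. With the replicate number as a block 6 cathepsins were called in WT and 5 in Tim4KO challenge, 0 between genotypes and 0 in the interaction. Of all 15943 tested genes that fit called 4619 in WT and 2562 in Tim4KO challenge. Between genotypes it called 3 in naive and 14 in ID8 cells, and in the interaction 0. In the same fit the differences of Ctsd and Ctsh between ID8 genotypes were 0.016 and 0.0031.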
